A study of Homo sapiens and Mus musculus with 74 samples.

Results

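The genes described here encode the beta subunits and FXYD regulators of the sodium pump. They were chosen by name, with earlier results of these data known: Atp1b1 and Atp1b2 for the beta subunits, and Fxyd1, Fxyd2, Fxyd6 and Fxyd7 for the FXYD proteins. These 6 genes were found among 22484 genes with a coding transcript in the mouse count table, and each was followed through the annotated transcript (GENCODE M21, GRCm38) that encodes its longest protein. Ribo-seq and RNA-seq were made from kidney and brain, and disome-seq from kidney, of wild-type mice (WT, Rpl41+/+) and of mice homozygous for a CRISPR-Cas9 deletion of the Rpl41 coding sequence (KO, Rpl41-/-). Each of the 10 groups held 3 libraries, which gave 30 in all. The mice were C57BL/6J, and the study's methods give 10-week-old males for Ribo-seq. The KO allele came from edited zygotes, so it is present in every cell and no transgene or Cre driver is involved. The study describes the mouse replicates as biological, the labels name no individual mouse, and p-values measure the spread between libraries of a group.

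The sodium pump, or Na+/K+-ATPase, moves sodium out of the cell and potassium in at the cost of ATP. Its long alpha subunit carries out transport, its glycosylated beta subunit is needed for folding and delivery of the pump to the plasma membrane, and a small single-pass FXYD protein adjusts the affinity of the pump for its ions in a tissue-dependent way. In the kidney tubule the pump drives salt reabsorption, and in the brain it restores the ion gradients that neurons and glia spend. The proteins differ widely in length: 70 to 94 amino acids for the 4 FXYD genes, 290 to 304 for the 2 beta genes and 1020 to 1053 for the 4 alpha subunit genes. RPL41 is the smallest protein of the ribosome and the study asked how its loss affects translation, including that of long proteins. The comparison made here is therefore of short FXYD messages against the longer messages of the same pump, in RNA, in ribosome-protected fragments (RPFs) and in disome fragments, which are protected by a pair of stacked ribosomes.

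Atp1b1 (ENSMUSG00000026576) lies at chr1:164437109-164458355 and Atp1b2 (ENSMUSG00000041329) at chr11:69599736-69605942, both on the minus strand. Fxyd6 (ENSMUSG00000066705, chr9:45370185-45396159) and Fxyd2 (ENSMUSG00000059412, chr9:45399669-45410278) lie next to each other on the plus strand of chromosome 9 with 3509 bases between them. Fxyd7 (ENSMUSG00000036578, chr7:31042513-31051467) and Fxyd1 (ENSMUSG00000036570, chr7:31051678-31057199) are neighbours on the minus strand of chromosome 7 with 210 bases between them. The family is named for a motif that opens with proline, phenylalanine, any residue, tyrosine and aspartate, and the coding sequence around it is shown because it is the stretch that the 4 genes share. The capitals mark the 15 bases that encode these residues, and each window is read 5′ to 3′ on the coding strand.
Fxyd1: ccggatCCATTCACCTACGATtaccac
Fxyd2: gagaatCCCTTCGAGTACGACtatgaa
Fxyd6: aaggatCCTTTCTATTACGACtaccag
Fxyd7: acagatCCTTTTTTCTATGACtatgcc
On GRCm38 these coding windows span chr7:31053467-31053911, chr9:45408126-45408307, chr9:45390654-45390784 and chr7:31045020-31047391 in that order, and all 4 span more than their 27 bases because an intron falls within them. The motif starts at codon 28 in Fxyd1 and Fxyd6, at codon 16 in Fxyd2 and at codon 17 in Fxyd7. Fxyd6 shared 19 of 27 bases with Fxyd1 and 19 of 27 with Fxyd2, whereas Fxyd2 and Fxyd7 shared 15 of 27. Of 21516 coding genes searched, 33 (0.153%) held the motif in frame, and 7 of these were Fxyd genes.

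Kidney libraries held between 11036643 and 42452425 counts over all transcripts for Ribo-seq, between 44998381 and 55077048 for RNA-seq and between 1187636 and 3018963 for disomes. Brain libraries held between 9498663 and 35881929 counts for Ribo-seq and between 84433838 and 123745890 for RNA-seq. Rpl41 itself had 3695 to 7502 counts in WT kidney RNA-seq and 3 to 8 in KO, and 8981 to 12199 against 6 to 12 in brain RNA-seq. It had 41 to 85 against 0 to 2 counts in kidney Ribo-seq, 37 to 76 against 0 to 4 in brain Ribo-seq and 71 to 154 against 0 to 2 in disome-seq. In kidney RNA-seq 4 neuronal markers (Snap25, Syt1, Rbfox3 and Tubb3) summed to at most 0.474 CPM (counts scaled to a library total of 1e6). In brain RNA-seq 3 thick ascending limb markers (Umod, Slc12a1 and Cldn16) summed to at most 0.105 CPM. Other lists parted the tissues less. The neuronal sum reached 5.68 CPM in WT kidney Ribo-seq. In WT RNA-seq, astrocyte markers summed to 182 to 195 CPM in kidney and 238 to 293 in brain. Choroid plexus markers summed to 166 to 203 CPM in kidney and 318 to 344 in brain. Distal convoluted tubule markers summed to 157 to 233 CPM in kidney and 66.8 to 87.7 in brain. KO kidney RNA-seq libraries 2 and 3 stood apart in their counts on short transcripts that cover part of a gene (given below for Atp1b1, Atp1b2 and Fxyd2). Kidney RNA results are therefore also given without them, which leaves 1 KO library. KO brain RNA-seq libraries 2 and 3 also had the lowest counts on the 5′ short transcript of Atp1b1 relative to its main transcript, and brain results without both were not computed. In bulk tissue, fewer cells of a type and less RNA per cell cannot be told apart.

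Among the 6 genes, the highest FXYD genes differed between the tissues, whereas the beta subunit gene Atp1b1 was high in both. Levels are given as CPM per kilobase, over the whole transcript in RNA-seq and over the coding sequence in Ribo-seq and disome-seq, so that genes can be compared within an assay. Fxyd2, the gamma subunit of the renal pump, stood highest of the 6 genes in WT kidney, with RNA levels of 472, 477 and 413 CPM per kb and RPF levels of 659, 790 and 882 CPM per kb in libraries 1 to 3. It ranked at the 99.9th percentile of 20190 genes with an RPF count in WT kidney. In WT brain its RNA levels were 0.591, 0.703 and 0.403 CPM per kb, from 61 to 113 counts, and its RPFs amounted to 5 to 9 counts per library. All kidney libraries were thus far above all brain libraries, as for 36.1% of 15954 genes in RNA and 36.5% of 14808 in RPFs. The Fxyd2 transcript with the longest protein is typed as a target of nonsense-mediated decay and is 1694 bases long, whereas a protein-coding transcript of 632 bases encodes 64 amino acids and shares most of its reads. On that shorter transcript the WT kidney level was 1208 ± 94.7 CPM per kb (SD, n = 3) in RNA and 851 ± 122 (SD, n = 3) in RPFs, so the rank of Fxyd2 did not depend on the choice of transcript but its RNA level per kb did.

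Atp1b1, the beta subunit found in most tissues, was high in both. Its RNA levels were 279, 256 and 404 CPM per kb in WT kidney and 246, 235 and 268 in WT brain, and its RPF levels were 407, 499.7 and 528 in WT kidney and 485, 613 and 582 in WT brain. The 2 tissues overlapped in both assays, and kidney RNA library 3 lay far above the other two. Atp1b1 exons share 575 bases with Nme7 on the opposite strand, which a count that uses strand would keep apart. Atp1b2, the beta subunit associated with glia and neurons, had RNA levels of 90.1, 97.3 and 91.5 CPM per kb in WT brain against 2.44, 2.66 and 3.09 in WT kidney. Its RPF levels were 216.0, 241 and 276 in WT brain against 7.77, 6.26 and 5.42 in WT kidney, with all kidney libraries below all brain libraries in both assays, as for 44.2% of genes in RNA and 40.8% in RPFs.

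The 3 other FXYD genes among the 6 were higher in WT brain than in WT kidney. Fxyd7, a regulator known from neurons, had RNA levels of 26.4, 36.1 and 21.4 CPM per kb and RPF levels of 73.5, 75.0 and 68.1 in WT brain, against 2 to 11 RNA counts and no RPF in WT kidney. Fxyd1 (phospholemman), the regulator best known from heart and skeletal muscle, had 25.5, 41.1 and 22.1 CPM per kb of RNA in WT brain and 5.55, 4.12 and 3.62 in WT kidney. Fxyd6, known from brain and inner ear, had 19.6, 22.6 and 17.4 CPM per kb of RNA in WT brain and 1.45, 2.13 and 1.57 in WT kidney. Brain libraries were above kidney libraries for all 3 genes. In WT brain RNA the order was Atp1b1 (249 ± 16.8 CPM per kb, SD, n = 3), Atp1b2 (93.0 ± 3.80), then Fxyd1 (29.5 ± 10.1), Fxyd7 (28.0 ± 7.49) and Fxyd6 (19.9 ± 2.62), and Fxyd2 last (0.566 ± 0.152). Fxyd1, Fxyd7 and Fxyd6 overlapped their neighbours there. In WT brain RPFs no neighbours overlapped and the order of these 3 was Fxyd7 (72.2 ± 3.61), Fxyd6 (54.1 ± 4.72) and Fxyd1 (38.8 ± 8.57). In WT kidney RPFs, Fxyd2 (777 ± 112) and Atp1b1 (478 ± 63.1) were followed at a distance by Atp1b2 (6.49 ± 1.19), Fxyd1 (5.89 ± 2.56) and Fxyd6 (3.98 ± 1.44), which overlapped their neighbours.

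The contrast of WT kidney with WT brain was tested with edgeR's quasi-likelihood F-test over all transcripts, with Benjamini-Hochberg adjustment. In RNA all 6 genes passed the threshold of 0.05, as did 64.1% of the 88731 transcripts tested (28.3% higher in kidney and 35.8% lower). Fxyd2 was higher in kidney by 9.89 on the log2 scale (SE, the standard error, 0.36, adjusted p = 1.0e-08). Fxyd7 was lower in kidney, with a log2 fold change of -7.03 (SE 0.44, adjusted p = 3.3e-07), as were Atp1b2 with -4.85 (0.19, 1.6e-08), Fxyd6 with -3.28 (0.24, 9.2e-07) and Fxyd1 with -2.50 (0.30, 4.5e-05). Atp1b1 was higher in kidney by 0.57 (SE 0.20, adjusted p = 0.0308). That last call was lost under library size alone (0.33, adjusted p = 0.193), with counts summed per gene (0.24, adjusted p = 0.381), with 1 transcript per gene (0.37, adjusted p = 0.144) and without any 1 of brain libraries 1, 2 and 3 or kidney libraries 1 and 3, where adjusted p ranged from 0.0657 to 0.103. It carries the background that all transcripts together had a median of -0.20, which moved to -0.45 under library size alone.

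In RPFs, 5 of the 6 genes passed, beside 70.9% of the 82957 transcripts tested (35.0% higher in kidney and 35.8% lower). The log2 fold changes were 8.79 for Fxyd2 (SE 0.25, adjusted p = 2.8e-12), -5.13 for Atp1b2 (0.18, 1.2e-11), -3.67 for Fxyd6 (0.21, 1.4e-09) and -2.54 for Fxyd1 (0.25, 6.1e-07). Fxyd7 had 171 to 366 RPF counts per WT brain library and none in WT kidney, so its RPF level was at least 96.5-fold higher in brain, taking 3 counts in each kidney library as the limit. Atp1b1 did not pass, with a log2 fold change of -0.14 (SE 0.16, adjusted p = 0.462) and a 95% interval from -0.49 to 0.21. Translation efficiency (TE), taken as RPF over RNA counts in 1 model of both assays, passed for none of the 6 genes by edgeR, beside 19.8% of 96684 transcripts (11.7% higher and 8.09% lower), although 3 members had an unadjusted p under 0.05. Atp1b1 had a log2 TE of -0.69 in kidney relative to brain (SE 0.25, adjusted p = 0.0605), and Fxyd2 had -1.07 (SE 0.47, adjusted p = 0.123). Deviations of WT libraries that share a number correlated across the pair of assays (r from 0.206 to 0.558). Whether a shared number means the same mouse was not tested. Under a block that pairs these libraries, Atp1b1 passed at -0.68 (adjusted p = 0.0435). It also passed by DESeq2 at -0.75 (adjusted p = 0.0170) and without WT kidney RNA library 2 at -0.78 (adjusted p = 0.0411). Fxyd7 passed with that block, by DESeq2 and under some other settings, but its fitted TE rests on a tissue with no RPF and gives no size.

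In KO kidney RPFs, Atp1b1 and Atp1b2 lay above WT on average and the 3 tested FXYD members (Fxyd1, Fxyd2 and Fxyd6) below, but no single gene passed the test. Fxyd1 reached 0.13 with 1 library left out. The 3 other tested beta and FXYD genes (Atp1b3, Fxyd4 and Fxyd5) ranged only from -0.04 to 0.10, so these sides were not shown for the classes as a whole. Atp1b1 RPF levels were 653, 521 and 511 CPM per kb in KO against 407, 499.7 and 528 in WT, and overlapped. The log2 fold change was 0.31 (SE 0.17, adjusted p = 0.287). Atp1b2 RPF levels were 9.89, 9.56 and 7.68 in KO against 7.77, 6.26 and 5.42 in WT, with KO library 3 just below WT library 1. The log2 fold change was 0.50 (SE 0.15, adjusted p = 0.0600), just short of the threshold. It passed when all transcripts with a count were kept (0.54, adjusted p = 0.00687) and with the replicate number as a block (0.56, adjusted p = 0.0328). WT and KO kidney Ribo-seq libraries of the same number did not deviate together (r from -0.11 to 0.05), so that block is arbitrary here. Over all alternatives the adjusted p of Atp1b2 reached up to 0.189. Fxyd2 RPF levels were 689, 549 and 522 in KO against 659, 790 and 882 in WT, where KO libraries 2 and 3 lay below all WT libraries and KO library 1 between WT libraries 1 and 2. Its log2 fold change was -0.33 (SE 0.16, adjusted p = 0.224), and it ranged from -0.50 to -0.21 over the alternatives. Fxyd1 (-0.31, 9 to 76 counts per library) and Fxyd6 (-0.31, 8 to 39 counts) overlapped between genotypes, and Fxyd7 had a single RPF in 6 kidney libraries. In all, 0 of 5 tested members passed by edgeR and 0 of 4 by DESeq2, with 1 at an unadjusted p under 0.05, beside 7.76% of 75266 transcripts called, of which 3573 (4.75%) were higher and 2265 (3.01%) lower. Under library size alone 4074 transcripts were called, 1531 of them higher.

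In kidney RNA, Fxyd2 and Atp1b2 lay on the opposite sides of WT from their RPFs. Fxyd2 RNA levels were 531, 591 and 593 CPM per kb in KO against 472, 477 and 413 in WT, so all KO libraries lay above all WT libraries, as for 8.02% of 13903 genes. Atp1b2 RNA levels were 2.22, 1.503 and 1.47 in KO against 2.44, 2.66 and 3.09 in WT, so all KO libraries lay below, as for 13.1% of genes. The log2 fold change was 0.50 for Fxyd2 (SE 0.16, unadjusted p = 0.0135, adjusted p = 0.292) and -0.50 for Atp1b2 (SE 0.20, unadjusted p = 0.0345, adjusted p = 0.292). Neither passed, by edgeR or by DESeq2, beside 0.00992% of 70545 transcripts called. Without KO libraries 2 and 3, which stood apart in their counts on short transcripts, the values were 0.27 and -0.24, with 1 KO library left. Without KO library 1, Fxyd2 passed at 0.60 (adjusted p = 0.0285) in a fit that called 12466 transcripts. Atp1b1 RNA was 323, 269 and 289 CPM per kb in KO against 279, 256 and 404 in WT, which overlapped (log2 fold change 0.07, adjusted p = 0.827, and -0.09 under library size alone). Fxyd1 and Fxyd6 RNA also overlapped, at -0.14 and 0.04 (-0.12 for Fxyd6 under library size alone). Fxyd7, with 2 to 17 counts, was not tested. All transcripts had a median of -0.03 in this comparison and of -0.19 under library size alone.

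**Figure D1:**
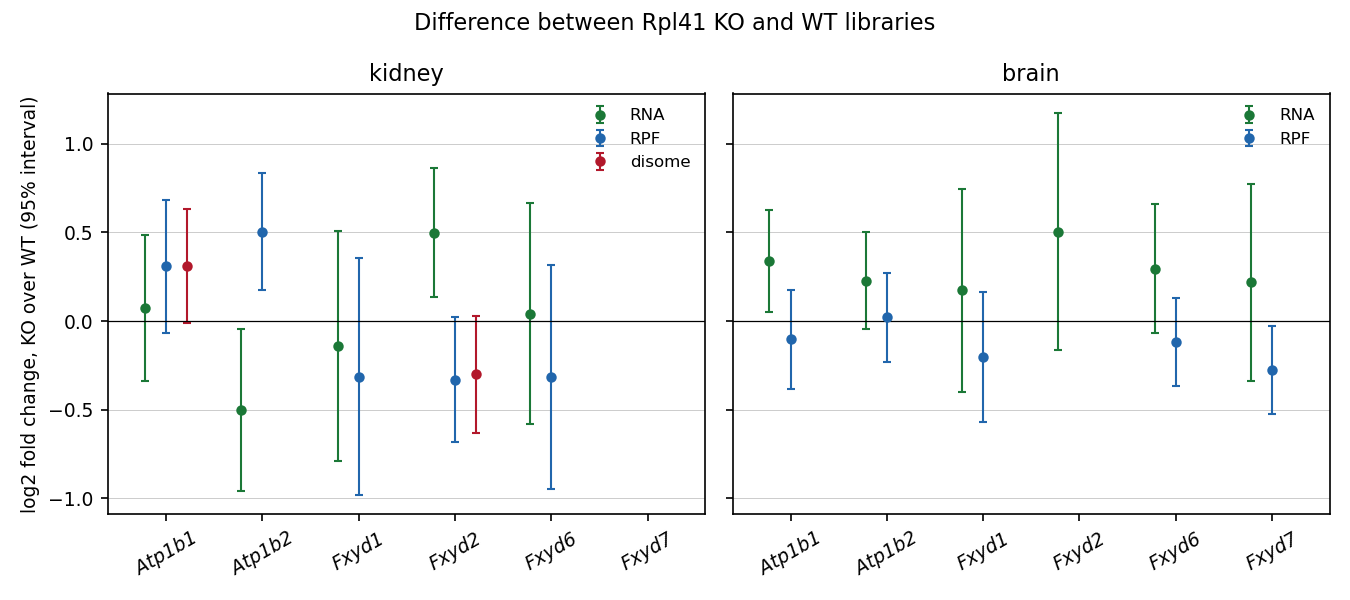
Log2 fold change of KO over WT (vertical axis) with its 95% interval from edgeR for each gene in kidney and brain, for RNA (green), RPF (blue) and disome fragments (red). Genes with too few counts have no point. In kidney, Fxyd2 is at 0.50 in RNA and -0.33 in RPF, whereas Atp1b2 is at -0.50 in RNA and 0.50 in RPF, and no gene passed after adjustment.

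Kidney TE, the difference between those changes, was 1.05 on the log2 scale for Atp1b2 (SE 0.27, unadjusted p = 0.00185, adjusted p = 0.117) and -0.82 for Fxyd2 (SE 0.25, unadjusted p = 0.00612, adjusted p = 0.135). Atp1b1 had 0.24, Fxyd1 -0.17 and Fxyd6 -0.36, and intervals of these 3 included 0. By edgeR 0 of 5 members passed, as did 0.0% of 89685 transcripts, 17404 of which had an unadjusted p under 0.05. DESeq2 called 4488 transcripts, including Atp1b2 (1.03, adjusted p = 0.0169) but not Fxyd2 (-0.83, adjusted p = 0.0533), and edgeR on 1 transcript per gene also called Atp1b2 (1.15, adjusted p = 0.0477). Both genes passed without KO RNA library 1 (Atp1b2 at 1.21, adjusted p = 0.00916, and Fxyd2 at -0.91, adjusted p = 0.0263). That fit called 16559 of 91865 transcripts. With a block that pairs assays by group and number, neither passed (Atp1b2 at 1.07, adjusted p = 0.219, and Fxyd2 at -0.83, adjusted p = 0.230). Without KO RNA libraries 2 and 3 together, which leaves 1 KO RNA library, the values were 0.79 for Atp1b2 and -0.59 for Fxyd2.

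Disome fragments, which had enough counts for Atp1b1 and Fxyd2, lay on the same sides of WT as RPFs. Atp1b1 disome levels were 680.2, 664 and 618 CPM per kb in KO against 506, 550.2 and 588 in WT, so all KO libraries lay above WT, as for 6.39% of 7672 genes. Fxyd2 disome levels were 643, 668 and 493 in KO against 777, 732 and 819 in WT, so all KO libraries lay below, as for 10.8% of genes. The log2 fold change was 0.31 for Atp1b1 (SE 0.16, adjusted p = 0.483) and -0.30 for Fxyd2 (SE 0.16, adjusted p = 0.503). Neither gene passed by edgeR or by DESeq2, nor had an unadjusted p under 0.05, beside 0.201% of 34754 transcripts called (0.0691% higher and 0.132% lower). Disome relative to RPF counts, tested in 1 model of both assays, differed between genotypes by 0.02 for Atp1b1 (95% interval -0.46 to 0.50) and 0.05 for Fxyd2 (95% interval -0.43 to 0.53). In that model 0.0% of 67065 transcripts were called, 3963 had an unadjusted p under 0.05 and DESeq2 called 10. Atp1b2 and Fxyd1 had 1 to 9 disome counts per library, Fxyd6 0 to 3 and Fxyd7 none.

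Sums of markers differed between genotypes for some kidney cell types and not for others, and in both directions. The 3 thick ascending limb markers summed to 1295 to 1442 CPM in KO RPFs against 958 to 1056 in WT, to 878 to 1157 CPM in KO RNA against 1178 to 1589 in WT, and to 872 to 982 CPM in KO disome fragments against 508 to 740 in WT. In disome fragments 1 of the 3 was at 3 counts or fewer in every library of a genotype, and in kidney RNA and RPFs 0 of 3 were. The 4 proximal tubule markers (Lrp2, Slc34a1, Slc5a2 and Cubn) summed to 4559 to 4742 CPM in KO RPFs against 3268 to 3886 in WT, and to 3112 to 3222 in KO RNA against at most 3121 in WT. In disome fragments the proximal tubule markers summed to 1679 to 1945 CPM in KO against 1400 to 1672 in WT. The 2 blood markers (Hbb-bs and Hba-a1) summed there to 73.5 to 99.4 CPM in KO against 138 to 155 in WT, and overlapped in kidney RNA and RPFs. The part of cell composition in these results was not tested. Podocyte markers were lower in KO RNA (12.3 to 14.9 CPM against 24.0 to 29.9) and disome fragments (0.842 to 5.59 against 13.6 to 16.2) and overlapped in RPFs. Endothelial markers were lower in KO RNA (21.2 to 28.9 against 31.4 to 43.6) and overlapped otherwise. Distal convoluted tubule and collecting duct sums overlapped in every assay. No share over all genes was computed for marker sums.

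In brain, RNA of all 6 genes was above 0 in log2 fold change and RPFs of 4 of the 5 tested genes were below 0, and none passed. Atp1b1 RNA levels were 308, 303 and 284 CPM per kb in KO against 246, 235 and 268 in WT, with all KO libraries above (log2 fold change 0.34, SE 0.13, unadjusted p = 0.0266, adjusted p = 0.898). Atp1b2 RNA levels were 113, 98.5 and 99.5 in KO against 90.1, 97.3 and 91.5 in WT, with all KO libraries above by a narrow margin (0.23, SE 0.12, adjusted p = 0.898). Of 15772 genes in brain RNA, 8.17% had all KO libraries above. The FXYD genes overlapped in brain RNA, at 0.50 for Fxyd2 on 61 to 139 counts, 0.29 for Fxyd6, 0.22 for Fxyd7 and 0.17 for Fxyd1. In brain RNA 0 of 6 members passed by edgeR and 0 by DESeq2, with 1 at an unadjusted p under 0.05, beside 0.0134% of 89237 transcripts called. KO brain RNA libraries 2 and 3 had the lowest counts on the 5′ short transcript of Atp1b1 relative to its main transcript (4.54% and 4.64%). The part of this coverage in the brain RNA and TE results was not tested. Brain neuron markers in RNA were higher in KO libraries (1485 to 1543 CPM against 1281 to 1458). So were markers of choroid plexus (372 to 396 against 318 to 344) and microglia (21.7 to 27.5 against 20.4 to 21.5). Astrocyte, oligodendrocyte and endothelial sums overlapped. The 2 blood markers (Hbb-bs and Hba-a1) were lower in KO (217 to 404 against 416 to 1285). The part of all these cell types was not tested.

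Fxyd7 was the 1 member whose genotypes did not overlap in brain RPFs. Its levels were 64.6, 58.1 and 53.8 CPM per kb in KO against 73.5, 75.0 and 68.1 in WT, with all KO libraries below WT, as for 11.7% of 14408 genes. Its log2 fold change was -0.27 (SE 0.11, unadjusted p = 0.0332, adjusted p = 0.356), and it stayed between -0.34 and -0.22 over the alternatives without passing. Fxyd6 RPF levels were 49.2, 49.4 and 48.0 in KO against 55.5, 57.9 and 48.8 in WT, which overlapped at WT library 3 (-0.12, adjusted p = 0.706). Fxyd1 was at -0.20 (adjusted p = 0.649), Atp1b1 at -0.10 (adjusted p = 0.776) and Atp1b2 at 0.02 (adjusted p = 0.966, and -0.0013 under library size alone), all with overlapping libraries. In brain RPFs 0 of 5 members passed by edgeR and 0 of 4 by DESeq2, with 1 at an unadjusted p under 0.05, beside 0.0345% of 81112 transcripts called (0.00123% higher and 0.0333% lower). Brain TE was below 0 for all 6 genes, from -0.19 for Atp1b2 to -0.66 for Fxyd2, with adjusted p from 0.880 to 0.884, and 1 of them, Atp1b1 (-0.42), had an unadjusted p under 0.05. No transcript of 98861 passed in brain TE (0.0%) by edgeR, 4797 had an unadjusted p under 0.05 and DESeq2 called 19, none of them a member.

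The term for genotype within tissue asked whether the KO effect of kidney differed from that of brain. In RNA, 0 of 6 members passed by edgeR and 0 by DESeq2, beside 0.00108% of 92865 transcripts, and 1 had an unadjusted p under 0.05. That gene was Atp1b2, whose RNA change in kidney was 0.73 lower on the log2 scale than in brain (SE 0.21, unadjusted p = 0.00438, adjusted p = 0.599). It passed without KO kidney RNA library 1 (-0.89, adjusted p = 0.0275), in a fit that called 5655 transcripts. In RPFs, 0 of 6 passed by either tool, beside 0.0801% of 88666 transcripts (0.0338% higher and 0.0462% lower), and 1 had an unadjusted p under 0.05, again Atp1b2, with a kidney change 0.50 above that in brain (SE 0.21, unadjusted p = 0.0279, adjusted p = 0.573). For Fxyd2 the RPF difference between tissues could not be resolved at 5 to 10 brain counts per library (95% interval -1.28 to 0.98).

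Within a library, the level of FXYD genes relative to beta subunits does not depend on scaling between libraries. The summed level of Fxyd1, Fxyd2, Fxyd6 and Fxyd7 in kidney Ribo-seq was 1.62, 1.58 and 1.67 times the summed level of Atp1b1 and Atp1b2 in WT and 1.05, 1.05 and 1.02 times in KO. On the log2 scale this was 0.70 ± 0.04 (SD, n = 3) against 0.06 ± 0.03 (SD, n = 3), a difference of -0.64, and the genotypes did not overlap. In disome fragments the ratio was 1.56, 1.33 and 1.41 in WT and 0.955, 1.01 and 0.817 in KO, a log2 difference of -0.63, again with no overlap. Fxyd2 alone over the beta subunits gave 1.59, 1.56 and 1.65 in WT kidney RPFs and 1.04, 1.04 and 1.01 in KO, so the sum was almost entirely Fxyd2. In KO kidney RPFs Fxyd2 (586 ± 89.5 CPM per kb, SD, n = 3) and Atp1b1 (561 ± 79.0) overlapped, which they did not in WT. For scale, 29.5% of 13725 genes in kidney Ribo-seq and 26.0% of 7672 in disome-seq had all KO libraries below all WT libraries when divided by the same beta subunit sum. The median gene was at -0.33 in Ribo-seq and -0.31 in disome-seq, and 16.8% and 19.4% of genes were as low as the FXYD ratio or lower. Relative to the beta subunits, most genes thus lay lower in KO kidney, Fxyd2 among them.

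In kidney RNA the ratio of FXYD to beta was 1.70, 1.87 and 1.03 in WT and 1.65, 2.21 and 2.06 in KO, which overlapped (log2 difference 0.40, and 0.15 without KO libraries 2 and 3). Of 13903 genes in kidney RNA, 6.42% had all KO libraries below and 2.69% all above WT on this ratio. The brain ratios overlapped as well, with log2 differences of -0.05 in RNA and -0.15 in RPFs, where 4.97% of 14408 genes had all KO libraries below and 4.68% all above in RPFs, and 33.1% of 15772 genes all below in RNA. Against the 4 long alpha subunit genes, the FXYD sum in kidney RPFs was 1.96, 2.01 and 2.43 times in WT and 1.48, 1.44 and 1.36 times in KO, a log2 difference of -0.57 with all KO libraries below, as for 28.1% of 13725 genes over the same alpha sum. In disome fragments the difference was -0.63 with all KO libraries below, as for 29.4% of 7672 genes. In kidney RNA it was 1.67, 1.39 and 1.07 in WT and 1.78, 2.39 and 2.16 in KO, a difference of 0.63 in the other direction with all KO libraries above, as for 17.6% of 13903 genes. It was 0.40 without KO libraries 2 and 3 and 0.35 with counts summed per gene. In brain RPFs it was 0.240, 0.273 and 0.202 in WT and 0.196, 0.195 and 0.179 in KO, with all KO libraries below (-0.32), as for 18.4% of 14408 genes, while brain RNA overlapped (-0.01). The log2 ratio of beta to alpha differed by 0.07 in kidney RPFs, 0.00073 in disome fragments, -0.16 in brain RPFs and 0.04 in brain RNA, all overlapping. In kidney RNA it differed by 0.23 with all KO libraries above, but by -0.13 with counts summed per gene. In kidney RPFs the log2 ratio to the long alpha messages thus differed between genotypes by 0.07 for the beta messages and by -0.57 for the FXYD messages, and the difference between these values was not tested.

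The table also counts short annotated transcripts that cover part of a gene, which locate reads along it only roughly. A share here is the count of a short transcript as a percentage of the main transcript's count. Reads on bases that the main transcript lacks also add to it. Of the 618 bases of the Atp1b1 retained-intron transcript below, 391 are shared, and of the 453 bases of the transcript further in, 339 are. Such shares were chosen after their values were seen. A retained-intron transcript of Atp1b1 shares bases 334 to 724 of the main transcript, which include the start of the coding sequence at base 499, and it held 30.3%, 30.4% and 29.0% of the Atp1b1 RPF count in WT kidney against 27.1%, 28.1% and 26.5% in KO. In brain RPFs it held 25.7%, 26.0% and 24.6% in WT against 24.3%, 23.7% and 23.3% in KO. All KO libraries lay below all WT libraries in both tissues, as did those of 12.5% of 22870 short transcripts in kidney and 8.33% of 23544 in brain. A transcript over bases 725 to 1063, further into the coding sequence, held 38.2%, 38.1% and 37.7% in WT kidney RPFs and 40.4%, 38.9% and 40.4% in KO, with all KO libraries above, as for 9.35% of short transcripts, while the brain values overlapped.

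In disome fragments the share of the same 5′ short transcript was 56.1%, 57.2% and 54.6% in WT and 53.3%, 57.2% and 58.1% in KO, which overlapped. Per the labels disome fragments are longer than RPFs, so 1 fragment can fall within more than 1 window. In kidney RNA the share of this transcript was 2.02%, 1.10% and 4.80% in WT and 1.40%, 0.24% and 0.46% in KO, where KO libraries 2 and 3 were the lowest. In brain RNA it was 6.30%, 7.06% and 11.6% in WT and 10.3%, 4.54% and 4.64% in KO, which overlapped, with KO libraries 2 and 3 again the lowest. Of 34061 short transcripts in brain RNA, 2.45% had all KO libraries below. For Atp1b2, a short transcript over bases 570 to 1220 had shares in kidney RNA of 1.48%, 1.81% and 12.4% in WT, 2.87% in KO library 1 and 0.0% in KO libraries 2 and 3. For Fxyd2, a retained-intron transcript over bases 88 to 411, with 324 of its 514 bases shared, had 37.9%, 33.8% and 46.5% in WT and 37.5%, 24.7% and 26.2% in KO. KO kidney RNA libraries 2 and 3 thus had the lowest of these shares for all 3 genes. The part of this coverage in the RNA and TE results above was not tested.

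Other genes of the pump were given by lists of names, chosen with earlier results of these data known. Of the 4 alpha subunit genes, all were tested in kidney RPFs and none passed by edgeR or DESeq2 (1 at an unadjusted p under 0.05), with all 4 above 0 and a median log2 fold change of 0.27 against -0.01 for all transcripts. In brain RPFs all 4 were also above 0, with a median of 0.11, and none passed by either tool or had an unadjusted p under 0.05. Of the other beta and FXYD genes, 3 were tested in kidney RPFs and none passed, had an unadjusted p under 0.05 or was called by DESeq2: Fxyd4, a regulator of the collecting duct pump, at -0.0008, Fxyd5 at -0.04 and Atp1b3 at 0.10. Between WT tissues, Fxyd4 RNA was higher in kidney by 8.76 on the log2 scale (adjusted p = 3.0e-07) and Fxyd3 RNA had a log2 fold change of -4.21 (adjusted p = 8.2e-07). Fxyd5 RNA was similar, with means of 1.52 CPM per kb in WT kidney and 1.79 in WT brain, and its RPF means were 5.40 and 6.21.

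Of 9 partners and relatives of the pump, 4 were tested in kidney RPFs and 2 passed, both higher in KO: Atp4a, the catalytic subunit of the gastric proton pump (0.59, adjusted p = 0.0484), and Nedd4l, a ubiquitin ligase that limits epithelial sodium channels (0.44, adjusted p = 0.0359). A list of 12 genes that use the sodium gradient is called carriers here, although 1 of them, Scnn1a, encodes a channel subunit. Of these 12, 11 were tested in kidney RPFs, 10 were above 0 and 3 passed, all higher in KO. These were Slc12a1, the cotransporter that loop diuretics block (0.83, adjusted p = 0.00629), Slc9a3, the proximal sodium-proton exchanger (0.64, adjusted p = 0.00885), and Slc4a4, the basolateral bicarbonate carrier (0.54, adjusted p = 0.0314). The median over the 11 was 0.40 against -0.01 for all transcripts, of which 4.75% were called higher. DESeq2 also called 2 partners and 3 carriers higher in kidney RPFs, beside 2553 of all 75266 transcripts. Both lists were chosen with earlier results of these data known, so these counts and medians cannot support a shift of partners or carriers as a class. Slc12a1 is also a thick ascending limb marker, and Slc34a1 and Slc5a2, carriers of the same list, are also proximal tubule markers, so these counts are not independent of the marker sums. No partner, carrier, alpha subunit or other beta or FXYD gene passed by edgeR in the other KO comparisons, where up to 4 genes of a list had an unadjusted p under 0.05. DESeq2 called 1 carrier higher in kidney RNA, 1 in disome fragments and 2 in kidney TE, and 1 partner in kidney TE. Over all transcripts it called 295 of 70545 higher in kidney RNA, 44 of 34754 in disome fragments and 2830 of 89685 in kidney TE.

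Over all 30 libraries, the genes fell into groups by tissue. Pearson's r of log2(CPM + 1) was 0.976 between Atp1b2 and Fxyd7, 0.952 between Atp1b2 and Fxyd6 and 0.920 between Fxyd1 and Fxyd6, whereas Fxyd2 ran against them, with r from -0.944 (Fxyd7) to -0.809 (Fxyd6). Atp1b1 was related weakly to all others, with r from 0.064 to 0.247. The genes most like each member were Gpx3 (r = 0.997) and Pcbd1 (0.995) for Fxyd2, Lrtm2 (0.994) and Aplp1 (0.994) for Atp1b2, and Cmtm5 (0.998) and Ly6h (0.998) for Fxyd7. They were Ncs1 (0.995) and Abhd8 (0.992) for Fxyd6, Cnih2 (0.967) and Elavl3 (0.967) for Fxyd1, and Polr3gl (0.840) and Trak2 (0.830) for Atp1b1. These values describe the libraries, which share tissue, assay and depth, and carry no test.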

How the data were processed

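The values were counts of reads per transcript, deposited by the authors for 142604 mouse transcripts, of which 141374 were matched to GENCODE M21 (GRCm38). Per the labels and the study's methods, adapters were trimmed with cutadapt, reads were aligned to mm10 with STAR and counted with featureCounts, with multimapping reads and reads that overlap several transcripts allowed, so a read can enter more than 1 transcript. Versions are not given in the sources used here. RNA was selected for poly(A) and libraries were directional. A second table of human transcripts, with 28 columns that could not be tied to a sample here, was not used.

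Each library's group came from its label. Counts were fitted over all transcripts with edgeR 4.0.16 (filterByExpr, TMM, quasi-likelihood F-test, Benjamini-Hochberg, threshold 0.05) in R 4.3.3. TE and disome relative to RPF were interaction terms of 1 model over both assays. Standard errors are the log2 fold change divided by the square root of F. CPM used all transcript counts of a library. The fits were tested on simulated counts. Depth per library is given with the results, and per-library values carry counting error that is largest for the genes with few counts. Alternatives were no filter beyond 1 count, library size alone, DESeq2 1.42.0, counts summed per gene, 1 transcript per gene, the replicate number as a block, and leaving out each library. Added after the data were seen were leaving out KO kidney RNA libraries 2 and 3 together, the shorter Fxyd2 transcript, and a block that pairs assays by group and number. For kidney, deviations of same-numbered Ribo-seq and RNA-seq libraries had r of 0.206 to 0.293 (WT) and 0.155 to 0.182 (KO). For brain, r was 0.276 to 0.558 (WT) and -0.083 to 0.122 (KO). Ribo-seq against disome-seq gave 0.244 to 0.604. WT against KO libraries, which are different mice, reached 0.490 in brain RNA-seq and 0.43 in kidney RNA-seq, both at number 2. Libraries of different number were not compared, so these values cannot show that a shared number means the same mouse. The named genes were the 6 members, Rpl41, the other members of the family, 9 partners, 12 carriers and, by Pearson's r over 30 libraries, the 2 genes most like each member. The members and lists were chosen with earlier results of these data known. Protein and promoter sequences were not used here.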

Additional observations from a re-analysis of the deposited data

How the results depend on the processing

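Among fold changes of single members under settings other than leaving out 1 library, 427 kept their direction and side of the threshold, 14 changed direction, 11 newly passed and 3 no longer passed. The number of members passing in kidney RPFs was 0 and became 1 (Atp1b2) when every transcript with at least 1 count was kept and with the replicate block. In kidney TE it was 0 and became 1 (Atp1b2) by DESeq2 and with 1 transcript per gene. In WT TE it was 0 and became 1 with at least 1 count (Fxyd7), 1 with counts summed per gene (Fxyd7), 1 with the replicate block (Atp1b1, adjusted p = 0.0465), 2 by DESeq2 and 2 with the block that pairs assays (Atp1b1 and Fxyd7 in both). WT and KO libraries of the same number did not deviate together in every pair (r from -0.43 to 0.49), so the replicate block joins libraries that share a number, and it and the block across assays changed no other call. With 1 library left out, the number passing ranged from 0 to 1 in kidney RNA, 0 to 2 in kidney TE, 0 to 2 in WT TE, 0 to 1 for the RNA tissue difference and 5 to 6 in WT RNA. The libraries concerned were KO kidney RNA 1 in the KO comparisons, and WT kidney RNA 2 and WT brain RNA 2 in WT TE. The cause was not tested.

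Directions changed for small values. In kidney RNA, Atp1b1 (0.07) became -0.095 under library size alone, -0.20 with counts summed per gene and -0.058 with 1 transcript per gene, and Fxyd6 (0.04) became -0.12, -0.037 and -0.0697, and -0.0065 without KO libraries 2 and 3. Brain RPF Atp1b2 (0.02) became -0.0013 under library size alone, kidney TE of Fxyd1 (-0.17) became 0.11 without KO RNA libraries 2 and 3, and WT TE of Fxyd1 (-0.06) became 0.088 under library size alone and 0.21 with 1 transcript per gene. Disome relative to RPF of Atp1b1 (0.02) and Fxyd2 (0.05) became -0.036 and -0.0048 with at least 1 count, and the RNA tissue difference of Fxyd2 (-0.0051) became 0.00061 by DESeq2. With 1 library left out, kidney RNA ranged from -0.031 to 0.27 for Atp1b1, -0.29 to 0.048 for Fxyd1 and -0.0900 to 0.26 for Fxyd6. Fxyd1 ranged from -0.69 to 0.13 in kidney RPFs, -0.036 to 0.52 in brain RNA, -0.52 to 0.22 in kidney TE and -0.48 to 0.21 in WT TE, and Atp1b2 from -0.0702 to 0.11 in brain RPFs. Disome relative to RPF ranged from -0.067 to 0.20 for Atp1b1, -0.28 to 0.41 for Atp1b2 and -0.061 to 0.24 for Fxyd2. The tissue difference ranged from -0.22 to 0.23 for Fxyd2 in RNA, and in RPFs from -0.49 to 0.35 for Fxyd1, -0.34 to 0.22 for Fxyd2 and -0.34 to 0.076 for Fxyd6. With 1 library left out, the log2 ratio of FXYD to beta ranged from -0.66 to -0.62 in kidney RPFs, -0.69 to -0.54 in disome fragments, 0.14 (without WT library 3) to 0.57 in kidney RNA, -0.26 to -0.071 (without WT library 1) in brain RPFs and -0.25 (without WT library 3) to 0.17 (without WT library 2) in brain RNA, where it was also 0.014 with counts summed per gene. The ratios of FXYD and of beta to alpha, whose alternatives were chosen after seeing the data, changed with counts summed per gene in kidney RNA, to 0.35 from 0.63 and to -0.13 from 0.23, and FXYD to alpha in brain RNA ranged from -0.32 to 0.32 with 1 library left out. All 180 levels per kb with 1 library left out stayed within 1 SD between libraries. With 3 libraries per group this must hold by arithmetic, so it says nothing about stability. Under other settings 65 levels stayed within 1 SD and 65 did not.

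Counts over all transcripts moved more. DESeq2 called 471 in kidney RNA (7 by edgeR), 3519 in kidney RPFs (5838), 26 in brain RNA (12), 388 in brain RPFs (28), 119 for the RNA tissue difference (1) and 237 for the RPF one (71). Keeping transcripts with at least 1 count gave 9936 in kidney RPFs, 278 in disome fragments (70), 1573 in brain RPFs, 11 in kidney TE, 5 in brain TE, 120 for disome relative to RPF (0) and 487 for the RPF tissue difference. The replicate block gave 252 in disome fragments, 80 in brain RPFs, 14 for disome relative to RPF, 0 for the RNA tissue difference and 41 for the RPF one, and the block across assays 204 for disome relative to RPF. Kidney RPF calls fell to 517 and 285 without KO library 2 or 3 and to 2304 and 2725 without WT library 1 or 2. Without KO kidney RNA library 1, kidney TE called 16559. Counts of 10 or fewer in disome fragments (Atp1b2, Fxyd1, Fxyd6) and in brain RPFs (Fxyd2) limit what could be detected there.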
